A study of Mus musculus with 9 samples.

Results

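Pyruvate dehydrogenase is the mitochondrial complex that turns pyruvate into acetyl-CoA and so decides how much pyruvate enters the citric acid cycle. The genes described here were the 10 that encode its catalytic subunits, its kinases and its phosphatases: Pdk1, Pdk2, Pdk3, Pdk4, Pdp1, Pdp2, Pdha1, Pdhb, Dlat and Dld. They were taken by gene name from a table of 54532 genes, and all 10 were found there. They were selected on the measured FPKM of these libraries, in all 3 comparisons, so their own levels and differences are given as a description, with no test. In 8 of the 10 the mean over the 9 libraries was at least 0.2 FPKM (a read count per gene, divided by gene length and by a size factor of the library), the minimum for a gene to enter the comparisons. Pdk2 and Pdk4 were below it.

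The cells were BV2, a mouse microglial line immortalized with the raf and myc oncogenes. Their RNA was sequenced in 3 libraries for each of 3 groups. The control group was kept under normal conditions in medium with 10% serum. The OGD group went through oxygen-glucose deprivation, in low-glucose medium with 4% serum in a chamber at 4% oxygen, so oxygen, glucose and serum changed together and cannot be told apart. The OGD-A485 group received the same deprivation together with A-485, a catalytic inhibitor of the acetyltransferase P300. The study's account gives 24 h of OGD and 50 µM A-485 for the experiments before the transcriptome and does not repeat either value for it. No group with A-485 but without OGD was analysed here, so the response to A-485 can be read only under deprivation. All libraries come from 1 cell line, and the labels do not say whether those of a group came from separate cultures. The p-values below then measure only the spread between these libraries, which may be technical.

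In the complex, the E1 enzyme is built from the alpha subunit Pdha1 and the beta subunit Pdhb and decarboxylates pyruvate with thiamine pyrophosphate. The E2 enzyme Dlat passes the acetyl group to coenzyme A on a lipoic acid arm, and the E3 enzyme Dld oxidizes that arm again. The 4 kinases phosphorylate E1 alpha and switch the complex off, and the phosphatases Pdp1 and Pdp2 switch it on again. Pdk1 is a textbook target of the hypoxia-inducible factor HIF-1, and Pdk4 is the kinase known to be induced by fasting and by glucocorticoids.

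The windows upstream of Pdk1, Pdk3 and Pdp2 are shown because these 3 genes had the largest differences between groups. They are RefSeq promoters of build GRCm38.p6, printed 5′ to 3′ on the strand of the gene, from 250 bases before the start to the base before it. Capitals mark ACGTG, a form of the core of the hypoxia response element, searched on both strands. The other form, GCGTG, was not searched for and is not marked where it occurs. The window of Pdk1 is chr2:71872974-71873223 on the + strand, that of Pdk3 is chrX:93832151-93832400 on the - strand, and that of Pdp2 is chr8:104591222-104591471 on the + strand.
Pdk1: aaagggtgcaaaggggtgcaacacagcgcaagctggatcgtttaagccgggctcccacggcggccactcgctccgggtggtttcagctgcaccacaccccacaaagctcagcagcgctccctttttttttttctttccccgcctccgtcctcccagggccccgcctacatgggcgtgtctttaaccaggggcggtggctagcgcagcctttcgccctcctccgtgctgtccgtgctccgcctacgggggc
Pdk3: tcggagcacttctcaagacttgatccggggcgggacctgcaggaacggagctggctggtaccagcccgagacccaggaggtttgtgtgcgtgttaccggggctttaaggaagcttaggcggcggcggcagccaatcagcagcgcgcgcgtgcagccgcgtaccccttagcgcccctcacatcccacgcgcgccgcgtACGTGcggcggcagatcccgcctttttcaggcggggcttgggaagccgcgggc
Pdp2: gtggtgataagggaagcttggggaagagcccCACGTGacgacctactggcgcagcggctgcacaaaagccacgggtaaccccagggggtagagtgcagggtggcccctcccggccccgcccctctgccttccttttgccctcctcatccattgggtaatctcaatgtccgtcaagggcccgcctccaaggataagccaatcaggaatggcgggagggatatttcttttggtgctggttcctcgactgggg
The Pdk1 window holds no ACGTG. The Pdk3 window holds 1 ACGTG, which starts 53 bases before the start site. Both of these windows also hold the unmarked form GCGTG. In the Pdp2 window ACGTG lies in CACGTG, which reads the same on both strands and so holds ACGTG in each direction, from 219 bases before the start. RefSeq promoters matched 9 of the 10 genes, 11 windows in all, and Pdp1 was not among them. With the 50 bases after the start included, 4 of the 11 windows held ACGTG, those of Pdk3, Pdp2, Pdhb and 1 of both Pdk2 promoters. Of 32851 RefSeq promoters of the same 300 bases, 19.6% held it. A match of these letters is a description of the sequence and not a site shown to be used. The GC content was 66.0% for the Pdk1 window of 300 bases, 68.0% for Pdk3 and 60.7% for Pdp2, against a median of 52.7% over all promoters.

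The libraries held between 12593250 and 16091038 reads on genes. In the deposited values, 1 read on a gene of 1 kb was worth between 0.0618 and 0.0786 FPKM. These steps did not follow depth alone. The lowest was that of control replicate 3, with 15594706 reads, and the deepest library, OGD-A485 replicate 2, was at 0.0633 FPKM. Within each group the replicates were further apart than counting noise, with a chi-square per degree of freedom of 2.67 to 5.24, so no library was a copy of another. Of 11 microglia markers, 9 averaged 1 FPKM or more in control and in OGD, and 10 in OGD-A485. P2ry12, a marker of resting microglia, stayed under 1 FPKM in each group, and Aif1, which encodes Iba1, was at 0.613 ± 0.187 FPKM in control, 0.889 ± 0.268 under OGD and 2.57 ± 0.345 with A-485 added. The summed FPKM of the microglia markers ranged from 428 to 444 in control, from 564 to 582 in OGD and from 989 to 1010 in OGD-A485, so it moved with the groups, and its part in the differences below was not tested. The summed markers of neurons, astrocytes and fibroblasts stayed under 0.2 FPKM in every library, and those of oligodendrocytes were between 1.02 and 2.36 FPKM. In bulk RNA, fewer cells with a transcript and less of it per cell cannot be told apart.

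Pdk1 was the main kinase transcript in every group, and Pdk3 the only other kinase above the filter. In control the order of levels, per gene length, was Dld, Pdha1, Pdk1, Dlat, Pdhb, Pdk3, Pdp2 and Pdp1. Pdk1 at 35.0 ± 0.657 FPKM and Dlat at 34.8 ± 0.186 FPKM (SD, n = 3) did not differ beyond their spread, while each other neighbour in that order did. In OGD, Pdk1 moved up to stand beside Pdha1, at 53.3 ± 1.78 and 52.6 ± 0.714 FPKM, a gap within their spread. In OGD-A485 both were at 52.3 FPKM, and Pdk3 was the lowest of the 8.

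**Figure D1:**
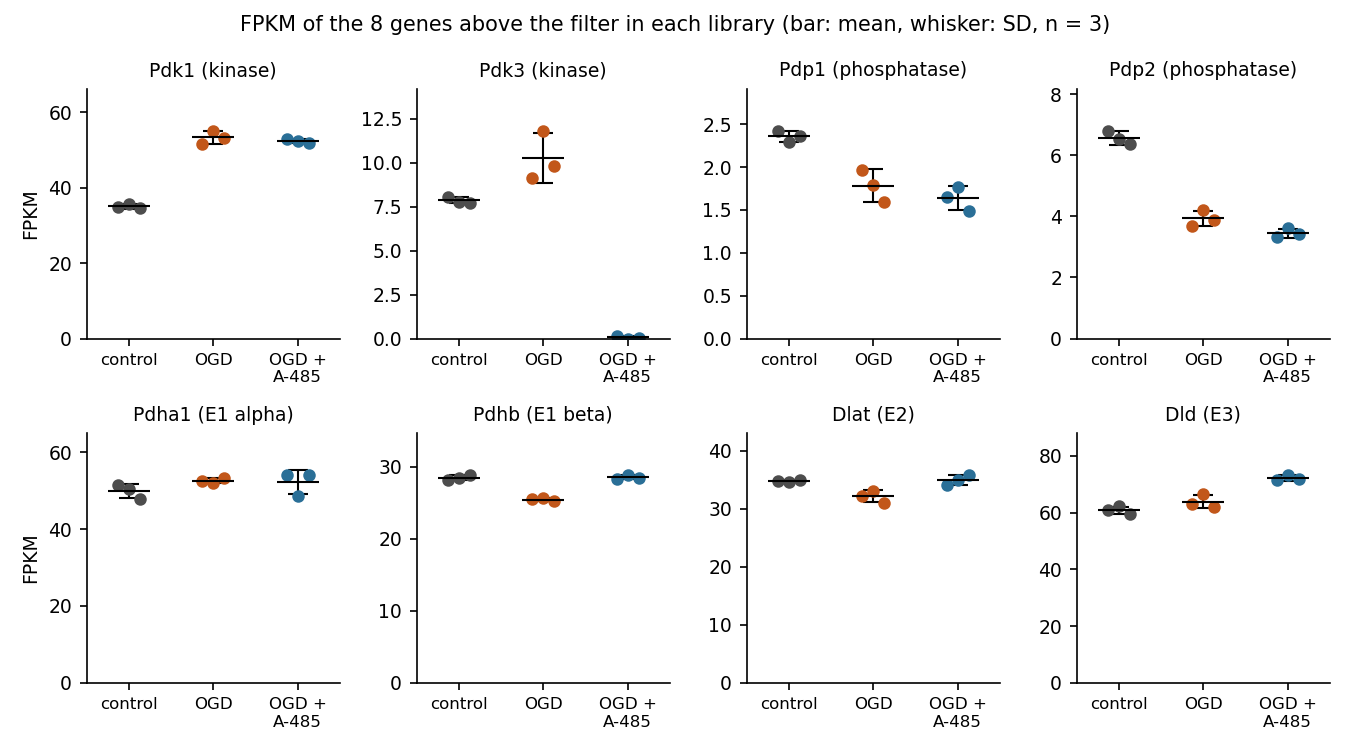
FPKM of the 8 genes above the filter, 1 panel per gene with its own axis from 0, for control, OGD and OGD-A485. Points are the 9 libraries, bars the means and whiskers the SD (n = 3). Pdk1 sits between 34.5 and 35.8 FPKM in control and between 51.6 and 55.1 in OGD, and Pdk3 lies at or below 0.134 FPKM in the OGD-A485 libraries.

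Among the kinases, Pdk1 (ENSMUSG00000006494, chr2:71873224-71903858, + strand) is the isoform that can phosphorylate E1 alpha on each of its known regulatory sites. It measured 34.8, 35.8 and 34.5 FPKM in the control libraries, 51.6, 55.1 and 53.2 in OGD, and 52.9, 52.2 and 51.8 in OGD-A485. Every library under OGD, with or without A-485, was above every control, and the OGD and OGD-A485 libraries overlapped. On the scale of log2(FPKM + 0.1), OGD was 0.60 above control (SE 0.035), and OGD-A485 differed from OGD by -0.03 (SE 0.035). The latter difference was -0.18 when the values were scaled by quantiles and -0.09 by the library totals. OGD-A485 remained 0.58 above control, a difference under the 0.5 threshold when the values were scaled by quantiles (0.48) or by the library totals (0.46).

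Pdk3 (ENSMUSG00000035232, chrX:93764607-93832201, - strand) is an isoform known for high activity and for little inhibition by pyruvate. Its levels were 8.04, 7.78 and 7.72 FPKM in control and 9.11, 11.8 and 9.83 FPKM in OGD. In OGD-A485 they were 0.134, 0 and 0.0542 FPKM. All OGD libraries lay above all controls, by 0.37 on the log2 scale (SE 0.26), which is under the 0.5 threshold, and the OGD-A485 libraries were far below both. The standard error of Pdk3 comes from a spread pooled over the 9 libraries, those near 0 included.

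In whole reads, Pdk3 had between 275 and 320 reads per control library and between 297 and 394 per OGD library, and from 0 to 5 in OGD-A485. Summed over 3 libraries, 7 reads in OGD-A485 stood against 1045 in OGD. Scaled by the size factors of the libraries, the OGD-A485 level was 168-fold lower than OGD (95% exact interval 81.3 to 419, counting error only) and 129-fold lower than control (62.1 to 321). Reads of PCR-amplified libraries without molecular identifiers are not independent molecules, so the intervals hold for counting alone. On the log2(FPKM + 0.1) scale the difference was -6.07 from OGD and -5.70 from control, the 3rd and the 7th largest falls of the 16123 genes compared. Those values depend on the constant added, as the closing part gives, because the OGD-A485 level is close to 0.

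In OGD, 7718 genes averaged 5 FPKM or more, and 5 of these averaged 0.1 FPKM or less in OGD-A485. Pdk3 was 1 of them by construction, since both cuts were set with its levels in view. The others, named after their values were seen, were Lmcd1, a LIM domain cofactor of GATA factors, the joining segments Ighj1 and Ighj3 of the immunoglobulin heavy chain, and the long noncoding RNA Gm13025. Ighj3 spread widely between the OGD libraries, at 7.35 ± 3.38 FPKM. The count depends on the cuts. Pdcd1, at 14.4 FPKM in OGD and 0.118 in OGD-A485, and Ptprn, at 7.52 and 0.1002 FPKM, just missed the second cut. Under the same treatment Pdk1 stayed between 51.8 and 52.9 FPKM.

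**Figure D2:**
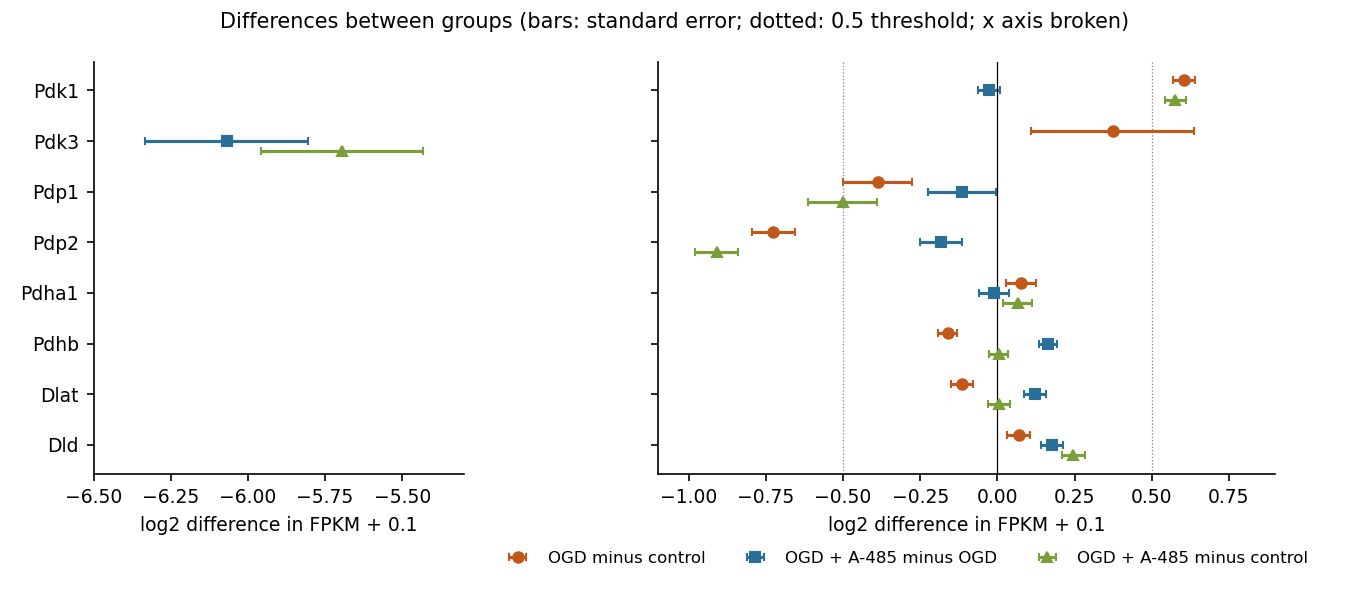
Difference in log2(FPKM + 0.1) between groups for the 8 genes, with standard errors, on a broken x axis whose parts have the same scale. Pdk3 stands at -6.07 and -5.70 in both comparisons with OGD-A485, while the catalytic subunits Pdha1, Pdhb, Dlat and Dld lie between -0.16 and 0.25 in all 3.

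Pdk2 (ENSMUSG00000038967, chr11:95026258-95041354, - strand), a kinase that many tissues express, had no read in any of the 9 libraries. A count of 0 allows up to 3 reads, which for Pdk2 would be up to 0.0745 FPKM in a library. Pdk4 (ENSMUSG00000019577, chr6:5483351-5496309, - strand) had 1 read in all, in OGD-A485 replicate 2, which came to 0.0180 FPKM. For Pdk4 the limit of 3 reads was up to 0.0671 FPKM. Neither gene gave a measurable level in any group at this depth, so no fold was computed for them.

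Taken as shares of the summed FPKM of the 4 kinases, Pdk1 made up 81.7 ± 0.439% in control and 83.9 ± 1.39% in OGD, and Pdk3 the remainder, 18.3 ± 0.439% and 16.1 ± 1.39% (SD, n = 3). In OGD-A485 the share of Pdk1 was 99.9 ± 0.111%. The summed level of the kinases was 42.9 ± 0.667 FPKM in control, 63.5 ± 3.16 under OGD and 52.4 ± 0.601 with A-485 added. The kinase sum thus differed between OGD and OGD-A485 by about the level that Pdk3 held in OGD, while the Pdk1 levels overlapped. Against Pdha1, the subunit that the kinases phosphorylate, the kinase sum was 0.859 ± 0.0239 in control, 1.21 ± 0.0719 in OGD and 1.004 ± 0.0603 in OGD-A485. These ratios describe transcripts and not enzyme activity.

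The phosphatases were lower under deprivation, where Pdk1 was higher. Pdp2 (ENSMUSG00000048371, chr8:104591451-104599026, + strand), the phosphatase known to respond to insulin, measured 6.81, 6.53 and 6.36 FPKM in control, 3.70, 4.21 and 3.90 in OGD, and 3.33, 3.61 and 3.41 in OGD-A485. The 3 groups did not overlap, with control highest and OGD-A485 lowest. OGD was -0.73 from control on the log2 scale (SE 0.069), and OGD-A485 was -0.18 from OGD (SE 0.069) and -0.91 from control.

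Pdp1 (ENSMUSG00000049225, chr4:11958184-11966452, - strand), the phosphatase known to be stimulated by calcium, measured 2.42, 2.29 and 2.36 FPKM in control, 1.97, 1.79 and 1.59 in OGD, and 1.66, 1.77 and 1.49 in OGD-A485. All controls lay above all other libraries, and the OGD and OGD-A485 libraries overlapped. The log2 difference was -0.39 between OGD and control (SE 0.11) and -0.50 between OGD-A485 and control (SE 0.11), which is at the threshold. Without control replicate 1 the latter was -0.48, without OGD-A485 replicate 3 it was -0.44, and with a constant of 1 it was -0.35, all under the threshold.

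The summed level of both phosphatases was 8.93 ± 0.276 FPKM in control, 5.72 ± 0.259 under OGD and 5.09 ± 0.257 with A-485 added, and Pdp2 made up 73.6 ± 0.569%, 68.8 ± 3.10% and 67.8 ± 1.51% of it. The kinase sum over the phosphatase sum was 4.81 ± 0.150 in control, 11.1 ± 0.391 in OGD and 10.3 ± 0.517 in OGD-A485. All 6 libraries under deprivation had a ratio of at least 9.70, and all 3 controls had at most 4.93. The OGD and OGD-A485 ratios did not overlap either, with OGD from 10.7 to 11.5 and OGD-A485 from 9.70 to 10.6. That order turned on reads not divided by gene length, where the means were 14.5 in OGD and 15.1 in OGD-A485.

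**Figure D3:**
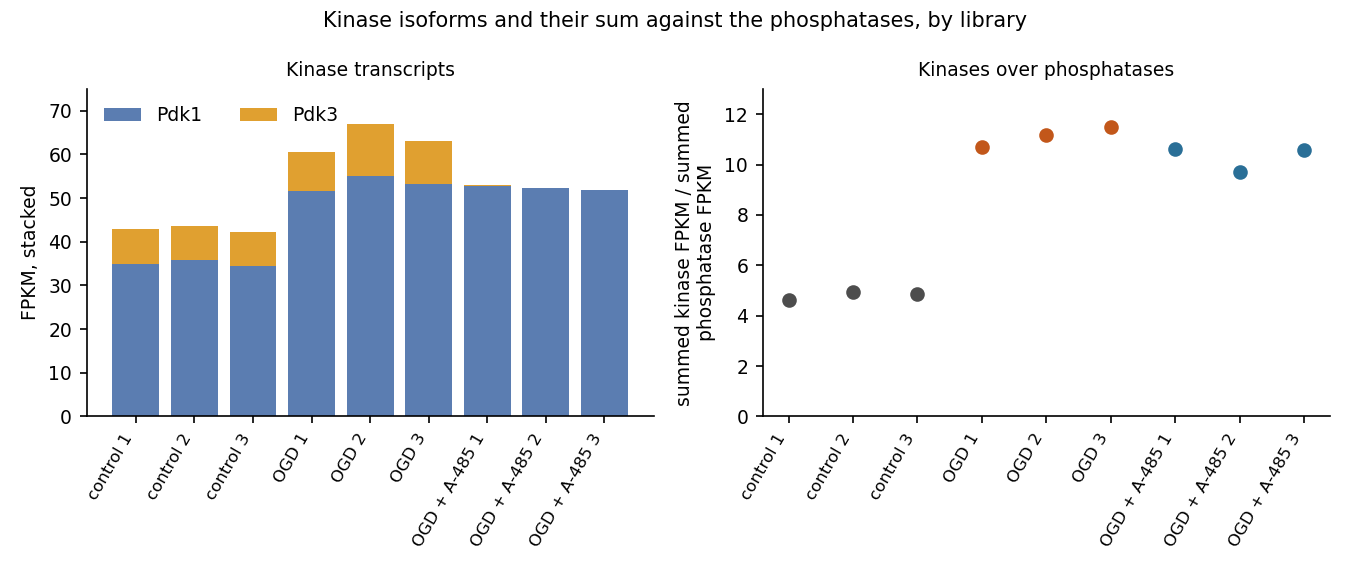
Left, FPKM of Pdk1 and Pdk3 stacked in each of the 9 libraries; right, the summed FPKM of the kinases over that of the phosphatases Pdp1 and Pdp2 in the same libraries. The Pdk3 part of the bar is not visible in OGD-A485, and the ratio is at most 4.93 in control and at least 9.70 in all libraries under OGD.

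The catalytic subunits differed far less. Pdha1 (ENSMUSG00000031299, chrX:160122209-160138413, - strand) measured 51.4, 50.4 and 47.9 FPKM in control, 52.6, 51.9 and 53.3 in OGD, and 54.1, 48.7 and 54.0 in OGD-A485, with log2 differences of 0.08 (OGD from control, SE 0.048) and -0.01 (OGD-A485 from OGD, SE 0.048). The OGD libraries lay just above the controls, and the OGD-A485 libraries spanned both. At its 3′ end Pdha1 shares 603 exonic bases, 16.1% of its exonic length, with Map3k15 on the other strand, whose level was 19.8 ± 0.824 FPKM in control, 30.8 ± 1.17 under OGD and 17.6 ± 0.916 with A-485 added. Whether reads were counted by strand is not given in the sources used here, so reads of both genes in that stretch cannot be told apart. Pdha2, the E1 alpha gene of the testis, was listed at 0.

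Pdhb (ENSMUSG00000021748, chr14:8165996-8173025, - strand) measured 28.1, 28.4 and 28.9 FPKM in control, 25.5, 25.6 and 25.2 in OGD, and 28.3, 28.9 and 28.5 in OGD-A485. OGD stood below both other groups without overlap, by a log2 difference of -0.16 from control (SE 0.030) and with OGD-A485 0.16 above OGD. With quantile normalization these were -0.12 and 0.077. The ratio of Pdha1 to Pdhb, the subunits that pair in E1, was 1.75 ± 0.0854 in control, 2.07 ± 0.0463 in OGD and 1.83 ± 0.126 in OGD-A485.

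Dlat (ENSMUSG00000000168, chr9:50634633-50659780, - strand) followed the same order as Pdhb, with 34.9, 34.6 and 35.0 FPKM in control, 32.3, 33.1 and 31.1 in OGD, and 34.1, 35.0 and 35.9 in OGD-A485. The OGD libraries were lowest and did not overlap the others, with log2 differences of -0.11 (OGD from control, SE 0.036) and 0.12 (OGD-A485 from OGD). With quantile normalization these were -0.071 and 0.014. Dld (ENSMUSG00000020664, chr12:31331277-31351453, - strand) had 60.8, 62.1 and 59.5 FPKM in control, 63.1, 66.4 and 61.9 in OGD, and 71.5, 73.3 and 71.7 in OGD-A485. Control and OGD overlapped, and OGD-A485 stood above both, by 0.18 over OGD and 0.25 over control on the log2 scale (SE 0.037). With quantile normalization the difference of Dld was 0.013 over OGD and 0.105 over control, so its size depends on the scaling. Dld is also the E3 enzyme of the sister complexes described below.

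Across all genes, a gene was called when its unadjusted limma p-value was under 0.01 and its log2 difference over 0.5 in size, the thresholds of the study. For OGD against control, 1 of the 8 members was called higher, Pdk1, and 1 lower, Pdp2, where 11.2% and 9.81% of the 16123 genes were called (1803 and 1581 genes, which became 1588 and 1866 when scaled by the library totals and 1622 and 1756 by quantiles). For OGD-A485 against OGD, 0 were called higher and 1 lower, Pdk3, against 12.2% and 13.4% of all genes. For OGD-A485 against control, 1 was called higher, Pdk1, and 3 lower, Pdk3, Pdp1 and Pdp2, against 17.0% and 16.6%. The groups did not overlap for 7 of the 8 members in the first comparison, where 55.4% of all genes did not overlap, for 5 in the second (56.8% of all genes) and for 5 in the third (63.8%). Since these contrasts chose the members, nothing is read from the counts. The median log2 difference of the 8 was -0.02, -0.02 and 0.00, against 0.01, 0.01 and 0.02 over all genes. The comparisons share libraries, so their values stand side by side and were not correlated.

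Pdk3 lies on the X chromosome, and only the genes around it that averaged 1 FPKM or more are described here. On the side of lower coordinates, the nearest gene that averaged 1 FPKM or more was Pola1, the catalytic subunit of DNA polymerase alpha, 132452 bases away, with 12.8 ± 0.498 FPKM in control, 8.70 ± 0.234 under OGD and 5.96 ± 0.113 with A-485. On the other side Zfx, a zinc finger transcription factor 242430 bases away, had 8.16 ± 0.158, 7.35 ± 0.869 and 7.83 ± 0.144 FPKM. Neither neighbour was near 0 in OGD-A485. The 14 genes of that level within 5 Mb, both neighbours included, differed between OGD-A485 and OGD by -1.12 (Amer1) to 0.56 (Maged1) on the log2 scale, with a median of -0.25. Over the 50 nearest genes compared, the median was -0.13.

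**Figure D4:**
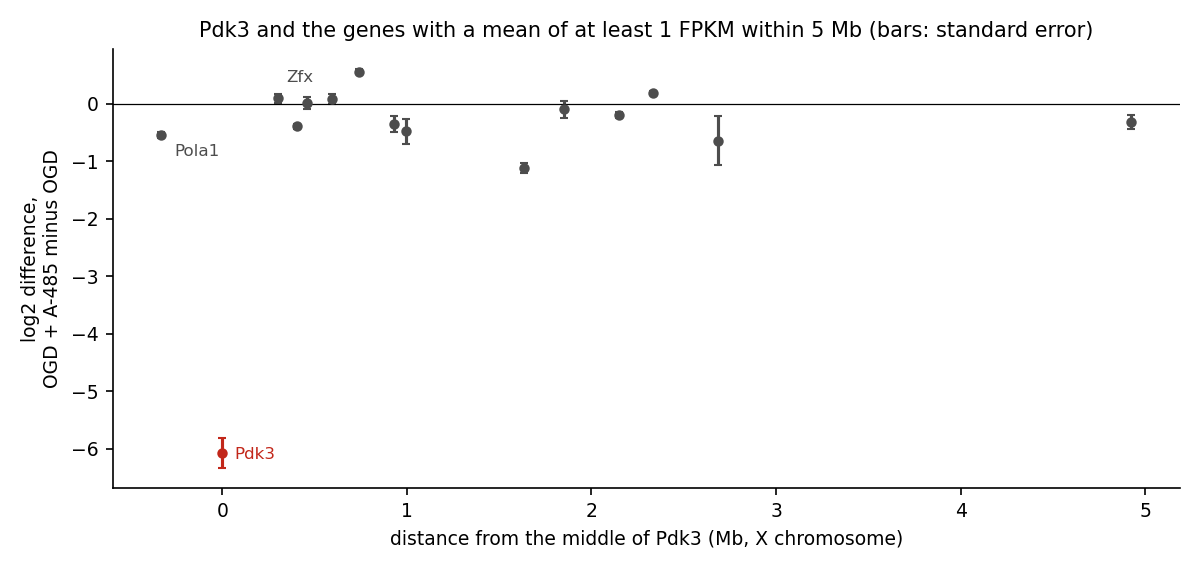
Log2 difference in FPKM + 0.1 between OGD-A485 and OGD, with standard errors, for Pdk3 and the 14 others within 5 Mb that averaged 1 FPKM or more, by distance from the middle of Pdk3. Pdk3 lies at -6.07, and the others lie between -1.12 and 0.56.

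The genes whose pattern over the 9 libraries was most like that of a kinase were ranked by the root mean square difference of log2(FPKM + 0.1), each gene centred on its control mean, over 10214 genes. For Pdk1 they were Rab3gap2, part of a regulator of Rab3 GTPases, at 0.0241, the chromatin reader Phf21a at 0.0403 and the cytoskeletal linker Epb41l2 at 0.0420. Rab3gap2 measured 16.7 ± 0.257, 25.3 ± 0.417 and 24.9 ± 0.858 FPKM in control, OGD and OGD-A485. For Pdk3 the likeness was looser, with Pdcd1, the checkpoint receptor PD-1, at 0.285, Ighj3 at 0.486 and Ptprn, a secretory granule protein, at 0.496. Pdcd1 measured 13.3 ± 0.302, 14.4 ± 0.641 and 0.118 ± 0.0756 FPKM. Ighj3 spread more widely, at 6.78 ± 2.26 FPKM in control and 7.35 ± 3.38 in OGD. No such gene was sought for Pdk2 and Pdk4, which had next to no reads.

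Beyond the members, 8 lists of genes around the complex held 73 genes, of which 62 were compared. These genes were not members, and their limma p-values were adjusted by Benjamini-Hochberg over all 16123 genes. The list counts below stand beside the shares of all genes called. These were 11.2% higher and 9.81% lower in OGD, 12.2% and 13.4% in OGD-A485 against OGD, and 17.0% and 16.6% against control. Pdhx, which holds E3 to the E2 core, measured 15.3 ± 0.447 FPKM in control, 12.9 ± 0.510 under OGD and 19.7 ± 1.74 with A-485 added. It rose by 0.61 from OGD to OGD-A485 (SE 0.064, adjusted p = 6.5e-05) and was not called between OGD and control (-0.24, adjusted p = 0.0142). Pdpr, a regulatory subunit of the phosphatase, measured 6.93 ± 0.286, 8.69 ± 0.291 and 6.67 ± 0.622 FPKM and was called in no comparison.

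Of the 10 compared genes that bring pyruvate to the complex or lead it elsewhere, 2 rose and 1 fell in OGD. Pcx, the pyruvate carboxylase that makes oxaloacetate from pyruvate, went from 16.2 ± 0.784 to 26.3 ± 1.53 FPKM (0.70, SE 0.055, adjusted p = 1.61e-05). Me2, the mitochondrial malic enzyme that makes pyruvate, went from 80.2 ± 3.48 to 120 ± 2.66 FPKM (0.58, adjusted p = 6.93e-06). Gpt, which interconverts alanine and pyruvate, went from 28.7 ± 2.28 to 15.5 ± 1.31 FPKM (-0.88, adjusted p = 4.33e-05). Ldha, which turns pyruvate into lactate, was not called (0.06, SE 0.054, adjusted p = 0.412), nor were the mitochondrial pyruvate carriers Mpc1 (0.29, adjusted p = 0.248) and Mpc2 (-0.39, adjusted p = 0.0255), both named after their values were seen.

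Between OGD-A485 and OGD, 1 gene of that list rose and 2 fell. Me1, the cytosolic malic enzyme, measured 62.2 ± 0.528 FPKM in control, 85.4 ± 2.13 under OGD and 3.98 ± 0.339 with A-485 added, a fall of -4.39 on the log2 scale (SE 0.056, adjusted p = 1.17e-09). Pcx fell to 6.50 ± 0.163 FPKM (-1.997, adjusted p = 3.79e-08), below its control level. Pck2, the mitochondrial enzyme that makes phosphoenolpyruvate, rose from 12.2 ± 0.131 to 22.4 ± 0.723 FPKM (0.87, adjusted p = 1.34e-06). The list's median was -0.01 in this comparison, beside 0.01 over all genes.

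Dlat carries lipoic acid, and of the 9 genes for its synthesis and attachment 1 fell in OGD: Glrx5, a glutaredoxin of iron-sulfur cluster assembly, from 43.7 ± 1.61 to 29.1 ± 3.52 FPKM (-0.59, SE 0.098, adjusted p = 0.00114). That difference was -0.49, under the threshold, without OGD replicate 2. With A-485, 1 rose and 1 fell against OGD. Iba57, an assembly factor for iron-sulfur proteins, went from 2.36 ± 0.518 to 3.57 ± 0.186 FPKM (0.59, adjusted p = 0.0066), a call lost without OGD replicate 2 or OGD-A485 replicate 1, and with a constant of 1. Lipt1, the lipoyl transferase that loads E2 enzymes, went from 3.54 ± 0.131 to 2.30 ± 0.290 FPKM (-0.61, adjusted p = 0.00208), which was -0.46 and not called with a constant of 1. Against control, 2 rose and 2 fell with A-485. Nfu1 rose to 10.6 ± 0.0945 from 6.16 ± 0.288 FPKM (0.78, adjusted p = 1.15e-05). Iba57 rose from 2.48 ± 0.124 FPKM (0.51, adjusted p = 0.0126), a call lost under 9 alternatives. Lipt1 fell from 4.78 ± 0.562 FPKM (-1.02, adjusted p = 6.52e-05). Lias, the lipoyl synthase, fell to 4.72 ± 0.233 from 7.06 ± 0.278 FPKM (-0.57, adjusted p = 4.25e-05), at -0.49 and not called with a constant of 1.

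Of 11 compared genes of the sister complexes, which share the E3 enzyme Dld, 0 rose and 2 fell in OGD. Gcsh, the lipoyl carrier of glycine cleavage, went from 67.3 ± 0.444 to 40.6 ± 1.38 FPKM (-0.73, adjusted p = 6.41e-06). Ogdh, the E1 enzyme of the 2-oxoglutarate dehydrogenase complex, went from 50.2 ± 1.18 to 34.4 ± 0.325 FPKM (-0.54, SE 0.037, adjusted p = 7.51e-06). Against OGD, 1 rose and 2 fell with A-485. Ogdhl, a relative of Ogdh, went from 0.541 ± 0.102 to 2.13 ± 0.0557 FPKM (1.81, adjusted p = 3.86e-05), and Ppm1k, the phosphatase of the branched-chain complex, went from 1.53 ± 0.255 to 0.734 ± 0.124 FPKM (-0.97, adjusted p = 0.00161). Bckdk, the kinase of that complex and a relative of the Pdk genes, was not called against OGD (-0.30, SE 0.043, adjusted p = 0.000399) and was called lower against control (-0.59, adjusted p = 4.3e-06), and is named after its values were seen. Against control, 1 gene of the list rose and 5 fell with A-485, with a median of -0.44 beside 0.02 over all genes. Ogdhl rose (2.30, adjusted p = 5.6e-06), and Gcsh fell to 34.8 ± 2.20 FPKM (-0.95, adjusted p = 4.65e-07). Ppm1k also fell (-0.77, adjusted p = 0.00461), a call lost with a constant of 1.

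Of 8 compared transcription factors known to act on Pdk genes, 3 rose and 0 fell in OGD, with a list median of 0.39. Myc went from 0.862 ± 0.123 to 2.83 ± 0.251 FPKM (1.61, SE 0.15, adjusted p = 4.06e-05). Ppard, a fatty acid receptor that induces Pdk4 in other tissues, went from 10.6 ± 0.673 to 22.0 ± 1.13 FPKM (1.04, adjusted p = 1.43e-05) and fell to 10.8 ± 1.08 FPKM with A-485 (-1.03, adjusted p = 1.07e-05). Esrra, an orphan receptor of mitochondrial genes, rose with A-485 from 19.1 ± 2.22 to 32.0 ± 2.38 FPKM (0.74, adjusted p = 0.000128). Against control, 4 of the list were higher and 0 lower with A-485, with a median of 0.63 beside 0.02 over all genes. Among the 4 were Myc (1.18, adjusted p = 0.000147) and Nr3c1, the glucocorticoid receptor. Nr3c1 was at 14.6 ± 0.577 against 7.35 ± 0.349 FPKM (0.98, adjusted p = 1.14e-06). Hif1a was not called in any comparison. It differed by -0.03 in OGD (adjusted p = 0.756), and with A-485 by -0.46 against OGD (adjusted p = 0.000927) and -0.497 against control (adjusted p = 0.000466). Epas1, another HIF alpha gene of the list, went the other way. It was not called in OGD (0.33, adjusted p = 0.0047) or with A-485 against OGD (0.47, adjusted p = 0.000548). Against control Epas1 was called higher (0.80, adjusted p = 1.4e-05). Both were chosen after their values were seen.

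Most genes known to be induced by hypoxia were, like Pdk1, higher in OGD, and some of them went up or down with A-485. In OGD, 10 of the 13 compared rose and 0 fell, with a median log2 difference of 1.27. Ndrg1, a stress-response gene, went from 28.3 ± 0.700 to 108 ± 7.31 FPKM (1.92, adjusted p = 2.39e-07), and Egln3, an oxygen-sensing prolyl hydroxylase, from 84.8 ± 4.90 to 335 ± 3.77 FPKM (1.98, SE 0.044, adjusted p = 3.98e-08). Against OGD, 1 rose and 2 fell with A-485, with a median of -0.12. Egln3 fell to 53.4 ± 0.846 FPKM (-2.65, adjusted p = 3.47e-09), Mxi1, a Myc antagonist, from 39.4 ± 0.683 to 21.8 ± 0.706 FPKM (-0.85, adjusted p = 7.03e-07), and P4ha1, a collagen prolyl hydroxylase, rose from 57.0 ± 1.25 to 94.3 ± 3.67 FPKM (0.73, adjusted p = 1.45e-06). Against control, 10 were higher and 2 lower with A-485. Of the 10 higher in OGD, 9 were among these 10, where P4ha1 stood in place of Egln3. Another of them was Vegfa, the vascular growth factor, at 41.9 ± 2.39 against 14.7 ± 0.292 FPKM (1.498, adjusted p = 3.53e-08). Ankrd37 was also among them, at 20.9 ± 2.51 against 6.40 ± 0.448 FPKM (1.69, adjusted p = 6.15e-07).

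**Figure D5:**
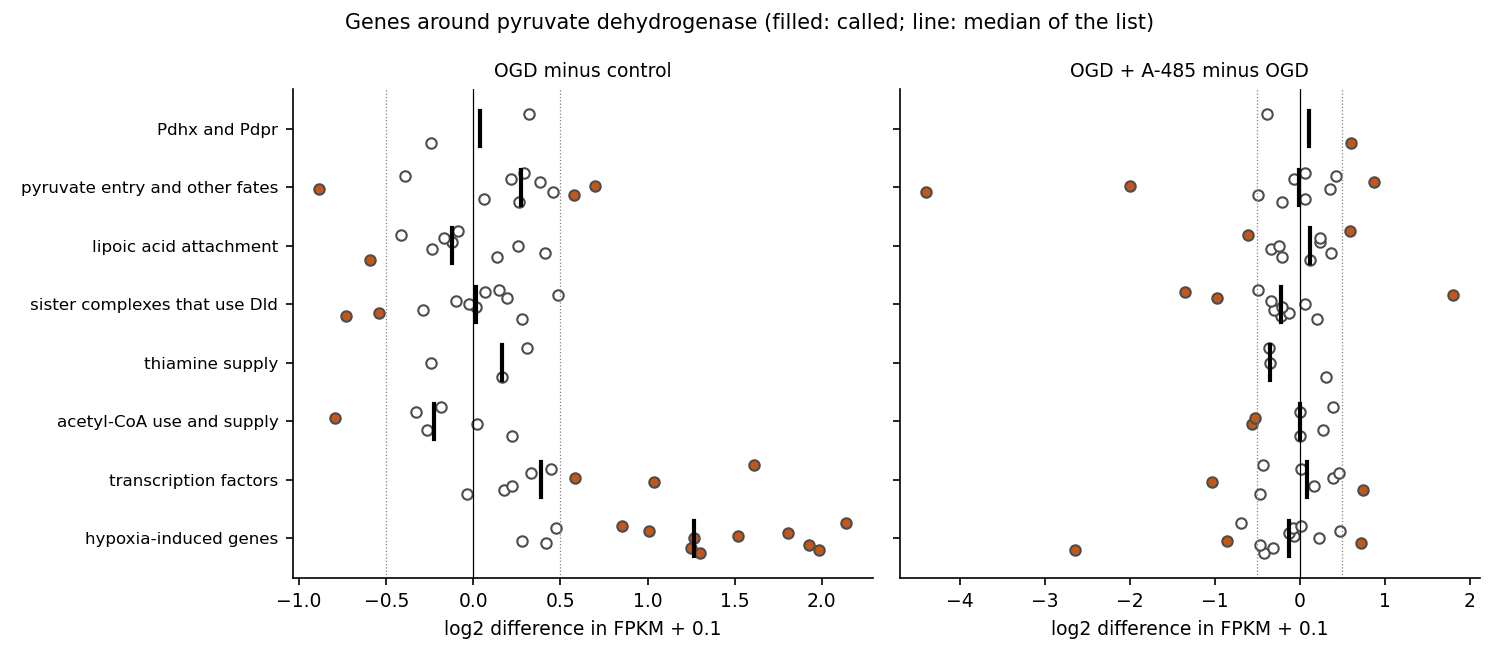
Log2 difference in FPKM + 0.1 of each compared gene of the 8 lists, for OGD minus control (left) and OGD-A485 minus OGD (right); filled points were called, vertical bars are list medians and dotted lines mark 0.5. The hypoxia-induced genes have a median of 1.27 on the left and -0.12 on the right, and Me1 is the point at -4.39.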

How the data were processed

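Total RNA of 9 BV2 libraries was made into cDNA with a SMARTer mRNA kit, per the labels. Reads on genes were counted with featureCounts v1.5.0-p3, per the study's methods, against GRCm38 (mm10), per the submitters' processing notes. The aligner and the use of strand in counting are not given in the sources used here. The authors deposited FPKM for 54532 genes with lengths and coordinates. Multiplied by gene length and by the step of its library, 100% of the nonzero FPKM were whole reads (tolerance 0.02), so reads could be recovered. The gene coordinates and lengths are those of GENCODE M21 for all 10 members.

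The groups were taken from the sample labels. The members, lists and tests were chosen with earlier results of these data known. The limma package (3.58.1, R 4.3.3) fitted group means to log2(FPKM + 0.1) in all 9 libraries, with a trended prior variance, for the 16123 genes that averaged 0.2 FPKM or more. Calls needed an unadjusted p-value under 0.01 together with a log2 difference larger than 0.5 in size. Where a p-value is given it is adjusted by Benjamini-Hochberg over all genes. The count test of the study was not repeated on FPKM, and limma-voom on the recovered reads was an alternative. For the members no p-value is given. The smallest p of an exact permutation test between groups of 3 is 0.1. Calculations and plots used scipy 1.17.1, pandas 2.3.3, numpy 2.4.6 and matplotlib 3.10.9 under Python 3.11.15, and the fit was tested on simulated data.

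The genes named are the members, Pdhx and Pdpr, up to 2 called genes per direction, list and comparison averaging 1 FPKM or more, and the 3 genes most like each kinase. Others were picked with their values in view, which the text says, and so were the nearest neighbours of Pdk3. Alternatives were constants of 1 and 0.01, a filter at 1 FPKM or none, median-of-ratios factors, quantile normalization, library totals, only the groups compared, a replicate block, no trend, limma-voom, an adjusted p-value under 0.05, reads not divided by length, and each library left out.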

Additional observations from a re-analysis of the deposited data

How the results depend on the processing

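The 24 log2 differences of the 8 members gave 480 values under the alternatives. Of these, 444 lay within the spread between replicates, 36 moved beyond it and 0 called values changed sign. Many of the 444 could not move, because some alternatives leave a difference between group means as it is. These were the other filters, only the groups compared, the replicate block, no trend, and leaving out a library of the group not compared. Pdk3 ranged from -7.82 to -3.40 against OGD and from -7.44 to -3.06 against control, the ends being the constants 0.01 and 1. Quantile normalization and library totals each reduced the members called higher in OGD-A485 against control from 1 to 0. Library totals turned the calls over all genes for OGD against control from 1803 higher and 1581 lower to 1588 and 1866 (quantile normalization to 1622 and 1756), for OGD-A485 against OGD from 1974 and 2165 to 1694 and 2474, and for OGD-A485 against control from 2747 and 2684 to 2253 and 3350. In the last comparison they moved the median of all genes by -0.10, and relative to that median Pdk1 was 0.55 above control. Median-of-ratios factors could hardly move a result, since the deposited values held nearly that scaling.

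Reads not divided by gene length put Pdk1 at 93.1% of the kinases (control) and 94.1% (OGD), and Pdk3 at 6.87% and 5.94%. They put the kinase sum over Pdha1 at 1.57 in control, 2.24 in OGD and 2.09 in OGD-A485, and over the phosphatases at 6.10, 14.5 and 15.1. Quantile normalization put the latter ratio at 11.9 in OGD and 9.54 in OGD-A485. The alternatives for that ratio and for the gene lists were chosen after seeing the data.

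When single libraries were left out, the members called lower in OGD-A485 against control numbered 2 to 3, and the other counts of members stayed at 1 higher and 1 lower (OGD against control), 0 and 1 (OGD-A485 against OGD) and 1 higher (OGD-A485 against control). Of the kinase sum in control, OGD and OGD-A485, Pdk1 held 81.5 to 81.9%, 83.4 to 84.7% and 99.8 to 99.9%. Pdk3 held 18.1 to 18.5%, 15.3 to 16.6% and 0.0523 to 0.178%. The kinase sum over Pdha1 was 0.849 to 0.872, 1.17 to 1.24 and 0.970 to 1.03, and over the phosphatases 4.74 to 4.89, 10.9 to 11.3 and 10.1 to 10.6. Over the 8 lists, 14 to 16 genes were called higher and 4 to 5 lower in OGD (15 and 5 with all libraries), 6 and 9 to 12 in OGD-A485 against OGD (6 and 10), and 17 to 18 and 13 to 17 against control (18 and 15). The naming rule picked 45 changes from the lists, not all of which are printed above. Of their 900 values, 879 kept their call, 21 lost it and 0 changed sign.

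Same-numbered libraries did not share their deviations from the group means (r from -0.125 to 0.0725 over 9 pairs, and from -0.0861 to 0.132 over 18 pairs of other numbers), and 2 of 9 libraries were closest to their own number. The samples share only a number. With the replicate block, 1 member was called higher and 1 lower in OGD, 0 and 1 in OGD-A485 against OGD, and 1 and 3 against control, as without it. Depth limits Pdk2, Pdk4 and the OGD-A485 level of Pdk3, each at or near 0 reads.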

Other observations

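The lists of genes that supply the complex's cofactor or use its product are short. Their counts stand beside the shares of all genes called, given above, and nothing is read from them. Of the 6 compared genes of acetyl-CoA use and supply, 1 fell in OGD and 2 fell with A-485 against OGD. Against control, 0 were higher and 2 lower with A-485, Acaca (-1.31, adjusted p = 8.72e-08, limma) and Slc25a1 (-0.54, adjusted p = 6.7e-06). The latter call was lost without OGD-A485 replicate 2. Acaca, the acetyl-CoA carboxylase that opens fatty acid synthesis, went from 12.5 ± 0.186 FPKM in control to 7.19 ± 0.161 in OGD (-0.79, SE 0.047, adjusted p = 3.84e-06, limma) and 4.99 ± 0.186 in OGD-A485 (-0.52 from OGD, adjusted p = 2.57e-05). The last call was lost without OGD-A485 replicate 3 and with quantile normalization or a constant of 1. Slc25a1, the mitochondrial citrate carrier, was at 45.7 ± 0.810 and 46.4 ± 0.207 FPKM in control and OGD and fell to 31.5 ± 1.73 with A-485 (-0.56 from OGD, adjusted p = 8.86e-06). Of 3 compared genes of thiamine supply, 0 were called in OGD or between OGD-A485 and OGD, and the thiamine transporter Slc19a2 was lower in OGD-A485 than in control, 3.64 ± 0.330 against 5.51 ± 0.343 FPKM (-0.59, adjusted p = 0.00054), a call lost with a constant of 1 (-0.49).

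Several microglia markers rose. Of 10 compared, 5 rose in OGD, 7 in OGD-A485 against OGD and 0 fell in either. Csf1r, the receptor that microglia need to survive, measured 24.2 ± 1.05, 44.6 ± 0.987 and 131 ± 2.58 FPKM in control, OGD and OGD-A485 (1.55 from OGD to OGD-A485, SE 0.040, adjusted p = 2.96e-08), while Pdk1 was at 53.3 and 52.3 FPKM in the last 2 groups. The 2 genes with a larger log2 fall than Pdk3 from OGD to OGD-A485 were Ighj3 at -6.13 and Pdcd1 at -6.13. The fall of Ighj3 is loosely measured, since its level spread widely between libraries, at 6.78 ± 2.26 FPKM in control and 7.35 ± 3.38 in OGD.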
